A study of Mus musculus with 3 samples.

Results

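The genes described here carry out cholesterol synthesis, its control and the movement of cholesterol through the cell, in mouse embryonic stem (ES) cells in which the transcription factor Gata6 was overexpressed. They were chosen by name from textbook roles, with earlier results of these data known. They comprise 18 enzymes of synthesis, 5 genes of the SREBP control system and 6 genes of transport, esterification and export, 29 genes in all. For 26 of them the array carried a probe set that names no other gene, out of 18193 such genes, and all 26 gave a signal above the floor of 54.0 on each array. Acat2 (the thiolase at the start of the pathway), Soat1 and Soat2 (the enzymes that esterify cholesterol for storage) had none in the annotation and were not analysed here.

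The cells were ES cells, pluripotent cells of the early embryo, engineered so that dex induced the overexpression of Gata6, a regulator of the primitive endoderm. A single Affymetrix array was hybridised for each of day 0 (the control), day 1 and day 2 of overexpression. The labels give no strain, cell line name or dose of dex, and do not say whether the day 0 cells carried the Gata6 construct or lacked only the inducer. If day 0 lacked the inducer, exposure to dex itself cannot be told apart from Gata6. With no replicate, days cannot be told apart from cultures or arrays, and no p-value is given.

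Cells make cholesterol from acetyl-CoA through mevalonate, isoprenoid diphosphates, squalene and lanosterol. When sterol is low, Scap escorts the membrane-bound SREBP factors to the Golgi, where they are cut and freed to switch on most genes of the pathway. When sterol is high, the Insig proteins hold them back. Cholesterol taken up with lipoproteins leaves lysosomes through the Npc proteins and leaves the cell through exporters such as Abca1. The yolk sac endoderm, which descends from primitive endoderm, is known for taking up and passing on maternal lipid.

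Array summary values were close. Median signals lay between 81.8 and 86.4, and the 3' to 5' ratio of Actb, a sign of RNA integrity, lay between 1.21 and 1.25. All 6 endoderm markers (Gata6, Gata4, Sox7, Sox17, Dab2, Pdgfra) were at least 2-fold higher and all 6 pluripotency markers (Pou5f1, Nanog, Sox2, Zfp42, Esrrb, Fgf4) at least 2-fold lower on day 1 and on day 2 than on day 0. Gata6 itself read 109.6, 5574 and 6069.6 on day 0, day 1 and day 2. Of 6 fibroblast markers, 3 (Col1a1, Col3a1, Postn) never left the floor, Col1a2 read at most 84.8 and Twist1 at most 112.6, and Thy1 read 421, 75.4 and 54.0, the floor. These are bulk samples, in which fewer cells of a type and less RNA per cell cannot be told apart.

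More cholesterol genes were higher than lower on both later days. The genes were chosen with earlier results of these data known, and their difference from all genes was not tested. Day 2 was set against day 0 first. Of the 26 genes, 5 were at least 2-fold higher (19.2%), where 11.0% of all 13865 genes compared were, and 1 was at least 2-fold lower (3.85%), where 10.1% of all genes were. The higher ones were Npc1, Stard4, Hsd17b7, Sc5d and Srebf2, and the lower one was Pmvk. When a gene's probe sets were averaged instead, only Npc1 and Stard4 passed 2-fold, 2 of 26 (7.69%), near the 8.48% of all genes on that measure, and Hsd17b7 (log2 ratio 0.69), Sc5d (0.61) and Srebf2 (0.92) did not. Pmvk was still lower on that measure. The median log2 ratio was 0.48 for the cholesterol genes and -0.05 for all genes. At 1.5-fold, 10 members were higher (38.5%, against 20.2% of all genes) and 2 were lower (7.69%, against 21.9%). At 3-fold, 2 were higher (7.69%, against 5.19%) and 0 lower (against 3.89%).

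Day 1 against day 0 gave a smaller median ratio. Fewer members passed 2-fold than in day 2 against day 0, and so did fewer of all genes. Here 3 of 26 members were at least 2-fold higher (11.5%, against 6.0% of 13602 genes compared) and 0 were lower (against 6.58%), with a median log2 ratio of 0.23, against -0.04 for all genes. The 3 were Stard4, Hsd17b7 and Npc1, all of which were also called on day 2. At 1.5-fold, 8 were higher (30.8%, against 13.3%) and 1 was lower (3.85%, against 15.9%). At 3-fold, 2 were higher (7.69%, against 2.54%) and 0 lower (against 2.12%). Both of these comparisons use the same day 0 array.

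Between day 1 and day 2 the median ratio of the group was close to 0. In day 2 against day 1, 0 of 26 members were at least 2-fold higher (against 5.61% of 13468 genes) and 1, Pmvk, was lower (3.85%, near the 3.67% of all genes). At 1.5-fold, 4 were higher (15.4%, near the 15.0% of all genes) and 1 was lower (3.85%, against 12.1%), and at 3-fold there were 0 higher and 0 lower (against 1.69% and 0.832%). The median log2 ratio was 0.03, against -0.01 for all genes.

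Dim probe sets vary more, and every member read at least 200 on each array. Among the 7663 genes that did so, a cutoff set after the values were seen, 9.2% were at least 2-fold higher and 7.92% lower in day 2 against day 0, with a median log2 ratio of -0.08, and 4.23% were higher and 3.39% lower in day 1 against day 0. The error of a log2 ratio was estimated from genes with several probe sets, as the SD of the difference between their ratios, scaled to a single probe set. Signals under 200 had an SD of 0.50, those of 200 to 1000 one of 0.39, those of 1000 to 5000 one of 0.25 and brighter ones 0.16. This error covers differences between probe sets on the same arrays and not the spread between cultures. It is the SD given with the ratios that follow.

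**Figure D1:**
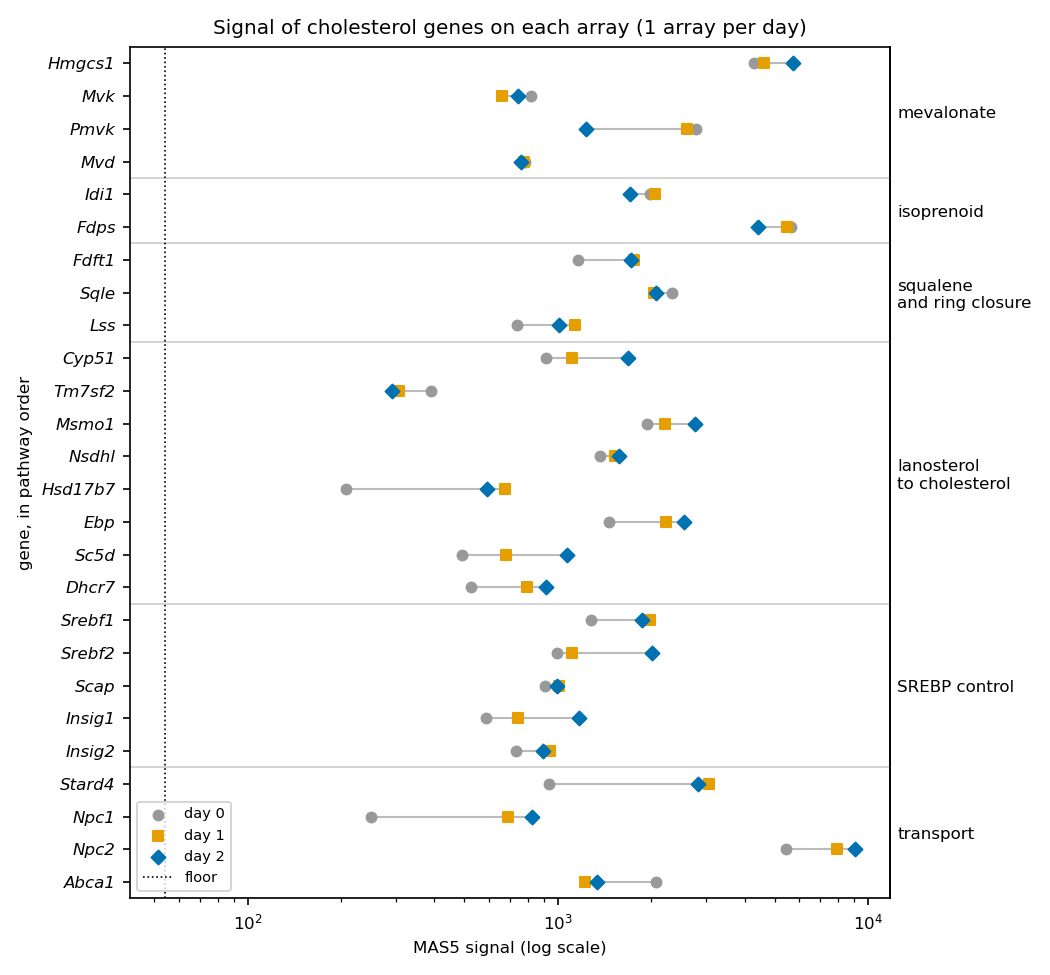
Signal of the 26 measured cholesterol genes on the day 0, day 1 and day 2 arrays (log scale, 1 array per day), in pathway order. Stard4, Npc1 and Hsd17b7 have both later days far to the right of day 0. Srebf2 has day 2 alone set apart, Insig1 moves right at each step, and Pmvk has day 2 to the left.

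Within synthesis, the genes of the early steps, apart from Pmvk, stayed within 2-fold of day 0. Hmgcs1, which makes the precursor of mevalonate, read 4301 on day 0, 4624 on day 1 and 5738 on day 2, a log2 ratio of 0.42 (SD 0.25) in day 2 against day 0. Mevalonate kinase Mvk read 821, 661 and 746 (log2 ratios -0.31 and -0.14, SD 0.39), and a second probe set gave 0.35 and 0.34. The decarboxylase Mvd read 783.9, 777 and 759 (-0.01 and -0.05, SD 0.39), and a second probe set gave 0.24 and 0.06. The 3 days overlapped within the measurement error for Mvk and Mvd. The Hmgcs1 probe sets disagreed in sign, with a dim one at -0.36 on day 2 and the brighter ones from 0.36 to 0.76.

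Pmvk, the kinase that follows Mvk, was the exception. It read 2799 on day 0 and 2611 on day 1, then 1235 on day 2. That is 2.27-fold lower in day 2 against day 0 (log2 ratio -1.18, SD 0.25) and 2.11-fold lower in day 2 against day 1. Day 1 lay beside day 0, and day 2 stood apart by several times the SD. The value rests on 1 probe set, whose name ends in _a_at, and the annotation lists no other for this gene.

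The isoprenoid steps showed small differences. Idi1, the isomerase that makes the reactive isoprenoid unit, read 1989.5, 2063 and 1711 on the 3 days. Fdps, which joins these units into farnesyl diphosphate, read 5666, 5465 and 4414, with a log2 ratio of -0.36 (SD 0.16) in day 2 against day 0. On the probe sets used, both genes were lowest on day 2 and within 2-fold on each day. A second Idi1 probe set read 661.6, 676.4 and 728.5, highest on day 2, with a log2 ratio of 0.14 against day 0.

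Of the enzymes that commit farnesyl diphosphate to sterols, squalene synthase Fdft1 read 1164, 1763 and 1721, a log2 ratio of 0.60 on day 1 and 0.56 on day 2 (SD 0.25 each). Squalene epoxidase Sqle, a rate-controlling step, read 2342, 2035 and 2078, with log2 ratios of -0.20 and -0.17. Lanosterol synthase Lss, which closes the ring, read 740.4, 1133 and 1009, with log2 ratios of 0.61 and 0.45 (SD 0.39). Fdft1 and Lss were brighter on both later days and Sqle was slightly dimmer, and all 3 stayed within 2-fold. Of the other Lss probe sets, one gave 1.12 on day 2 and a dim one -0.14.

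Of the 17 measured synthesis genes, 2 were at least 2-fold higher on day 2 (11.8%, near the 11.0% of all genes). Both belong to the steps from lanosterol to cholesterol, and neither passed when probe sets were averaged. Of the 8 enzymes of these steps, 7 were above day 0 on day 1 and 7 on day 2. Of all genes compared, 6260 of 13602 and 6481 of 13865 were. Nsdhl on both days, and Msmo1 and Tm7sf2 on day 1, stood no further from 0 than their SD. The median log2 ratios of the 8 enzymes were 0.38 and 0.81. For the 3 squalene and ring closure genes the medians were 0.60 and 0.45. They were 0.00 and -0.29 for the 2 isoprenoid genes and -0.06 and -0.09 for the 4 measured mevalonate genes. On day 1 the squalene and ring closure stage thus had the highest median of the 4 stages, and on day 2 the lanosterol stage. The cut of the pathway into stages follows textbook steps and was made with the values known. The stage medians rest on the probe sets used. Hmgcs1, Mvk, Mvd, Idi1, Lss, Hsd17b7 and Sc5d each had another probe set of opposite sign on day 2.

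Hsd17b7, the ketone reductase of sterol demethylation, read 208 on day 0, 677 on day 1 and 592 on day 2. It was 3.25-fold higher on day 1 (log2 ratio 1.70, SD 0.39) and 2.84-fold higher on day 2 (1.51). Both later days were far above day 0 and close to each other. The probe set used ends in _x_at, a type that can also detect other transcripts, and with such unspecific probe sets left out the log2 ratios were 1.22 and 1.05. Of its other probe sets, one read 219, 511 and 454, another 153, 348 and 310, and the last, a dim one, 106.5, 142 and 60.2. Only the dim one lay below day 0 on day 2, with a log2 ratio of -0.82.

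Sc5d, the desaturase that precedes the last reduction, read 491, 682 and 1073, which made it 2.18-fold higher on day 2 (log2 ratio 1.13, SD 0.39) and 1.39-fold on day 1. The signal was higher at each step, with log2 ratios of 0.47 and then 0.65 (SD 0.39 each). A second probe set gave 0.85 on day 2 and a dim one -0.16. Cyp51, the lanosterol demethylase, read 914, 1109 and 1688, with log2 ratios of 0.28 and 0.89 (SD 0.25). Its 2 probe sets above the floor gave 0.82 and 0.89 on day 2.

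Ebp, the sterol isomerase, read 1460 on day 0, 2226 on day 1 and 2560 on day 2, with log2 ratios of 0.61 and 0.81 (SD 0.25). Dhcr7, the terminal reductase, read 523, 795 and 917, with the same ratios to 2 decimals, 0.61 and 0.81 (SD 0.39). Each was at its lowest on day 0 and within 2-fold throughout. Msmo1, the methyl sterol oxidase, read 1943, 2213 and 2778 (log2 ratio 0.52 on day 2, SD 0.25). Nsdhl, the dehydrogenase that acts with it, read 1367, 1529 and 1570 (0.20). Tm7sf2, one of the sterol reductases, was the single enzyme of this stage below day 0 on both days, at 391, 306.5 and 292 (log2 ratio -0.42 on day 2, SD 0.39).

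**Figure D2:**
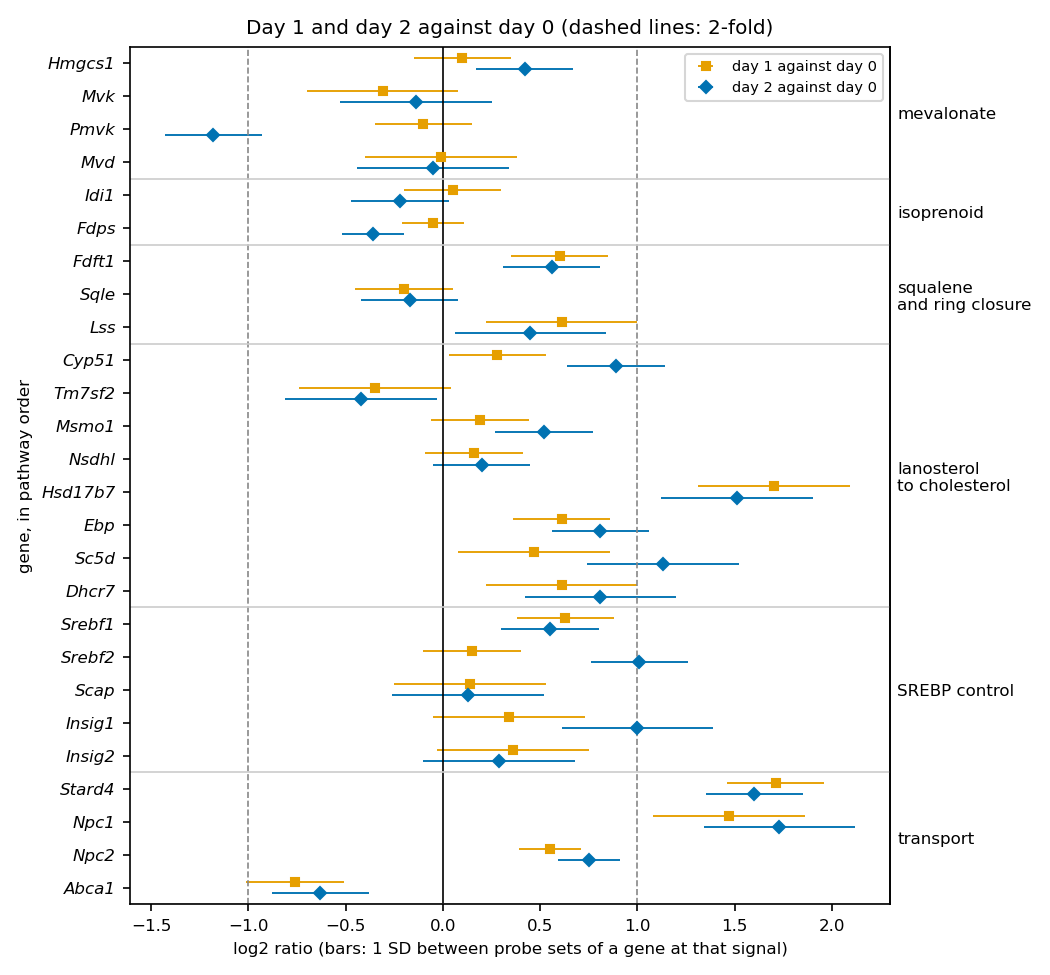
Log2 ratio of each cholesterol gene in day 1 against day 0 and in day 2 against day 0, with bars of 1 measurement SD and dashed lines at 2-fold. Pmvk alone lies past the line for lower, at -1.18 on day 2, while Hsd17b7, Stard4 and Npc1 lie past the line for higher on both days.

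Promoter sequence was available from RefSeq (GRCm38.p6) for 23 of the 29 listed genes, as windows from 250 bases before to 50 bases after the start. There were none for Fdps, Fdft1, Sqle, Stard4, Npc1 and Soat2. CCAAT, the letters bound by NF-Y, a factor known to act beside SREBP, stood on either strand in 20 of the 23 genes (87.0%), against 43.2% of the 8925 genes with a window that lay above the floor on each array. Taken per window, 21 of 31 member windows (67.7%) and 37.4% of all 32851 windows held it. The 3 genes without it were Acat2, Scap and Abca1. GGGCGG, the Sp1 letters, stood in 22 genes (95.7%, against 70.3% of those genes on the array and 35.7% of all windows). A strict sterol regulatory element, TCACNCCAC, the letters bound by SREBP, stood in 1 gene, Hmgcs1 (4.35%, against 1.36% of genes on the array and 1.24% of all windows). AGATAA, one form of the letters bound by Gata factors, stood in 2 genes, Insig2 and Npc2 (8.7%, against 7.18% of genes on the array and 11.2% of all windows). Such matches describe letters and are not binding sites.

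The 250 bases before a start are shown for Hsd17b7 and Pmvk, the genes with the widest day 2 ratios on either side among those with a window, and for Hmgcs1, which holds the sterol regulatory element. Capitals mark CCAAT or its reverse complement ATTGG and, in Hmgcs1, also TCACCCCAC, which begins 137 bases before the start. The marked letters of the 2 kinds do not overlap. Pmvk has 2 windows in the table, of which the one that holds CCAAT is shown.
Hsd17b7, chr1:169969206-169969455, minus strand: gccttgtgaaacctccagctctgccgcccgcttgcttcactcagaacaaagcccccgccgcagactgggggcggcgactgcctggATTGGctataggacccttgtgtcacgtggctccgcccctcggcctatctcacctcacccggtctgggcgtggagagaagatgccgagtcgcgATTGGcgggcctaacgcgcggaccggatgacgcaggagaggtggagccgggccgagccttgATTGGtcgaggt
Pmvk, chr3:89454291-89454540, plus strand: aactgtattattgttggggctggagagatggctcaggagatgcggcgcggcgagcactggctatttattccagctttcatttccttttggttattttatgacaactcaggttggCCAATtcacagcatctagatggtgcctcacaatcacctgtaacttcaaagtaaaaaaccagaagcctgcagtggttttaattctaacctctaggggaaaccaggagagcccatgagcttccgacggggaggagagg
Hmgcs1, chr13:119690101-119690350, plus strand: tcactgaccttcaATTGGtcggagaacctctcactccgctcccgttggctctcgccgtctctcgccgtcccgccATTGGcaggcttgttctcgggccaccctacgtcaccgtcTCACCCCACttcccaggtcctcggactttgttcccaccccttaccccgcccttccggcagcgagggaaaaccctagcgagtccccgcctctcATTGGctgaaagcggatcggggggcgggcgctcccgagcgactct

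Hsd17b7 and Hmgcs1 each show 3 marked CCAAT matches in these bases, all on the opposite strand, and Pmvk shows 1. Hsd17b7 was higher on both days, Hmgcs1 stayed within 2-fold and Pmvk was lower on day 2. CCAAT stood in 20 of the 23 genes with a window, and a link between the letters and the ratios was not tested.

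The 5 SREBP control genes all had log2 ratios above 0 on both days, with medians of 0.34 and 0.55. Of all genes compared, 6260 of 13602 on day 1 and 6481 of 13865 on day 2 did. Scap and Insig2 on both days, and Srebf2 and Insig1 on day 1, stood no further from 0 than their SD. Srebf2, which encodes the SREBP most devoted to cholesterol, read 995 on day 0, 1107 on day 1 and 2008 on day 2. It was 2.02-fold higher on day 2 (log2 ratio 1.01, SD 0.25), just past the threshold, and a second probe set gave 0.83. Day 0 and day 1 lay close together and day 2 apart from both.

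Insig1, which holds SREBP in the endoplasmic reticulum and is a known SREBP target, was also brightest on day 2, at 586, 744 and 1168. From day to day its log2 ratios were 0.34 and then 0.65 (SD 0.39 each). Its day 2 ratio of 1.99-fold (log2 ratio 1.00, SD 0.39) fell just short of the threshold. Its relative Insig2 read 735, 945 and 897, with log2 ratios of 0.36 and 0.29 and the same sign on all 3 probe sets. Insig1 was brightest on day 2 and Insig2 on day 1, a difference that no test between days could assess.

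Srebf1, whose SREBP isoforms act more on fatty acid genes, read 1276, 1982 and 1864 (log2 ratios 0.63 and 0.55, SD 0.25). Scap, the escort that senses sterol, read 911, 1006 and 994 (0.14 and 0.13). Srebf1 was already brighter on day 1, and Scap had the day 2 ratio nearest 0 of the 5.

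The transport genes included the widest ratios. Stard4, a soluble carrier that moves cholesterol between membranes, read 934 on day 0, 3061 on day 1 and 2829 on day 2. It was 3.28-fold higher on day 1 (log2 ratio 1.71, SD 0.25) and 3.03-fold on day 2 (1.60). Its 3 probe sets agreed, with log2 ratios from 1.62 to 2.09 on day 1 and from 1.56 to 1.89 on day 2. Of all genes compared, 5.1% had a higher day 2 ratio than Stard4.

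Npc1, the lysosomal membrane protein that lets cholesterol out of the lysosome, read 249.9, 693 and 826. Day 1 was 2.77-fold and day 2 3.31-fold above day 0 (log2 ratios 1.47 and 1.73, SD 0.39). It rests on 1 probe set. Its soluble partner Npc2, which hands cholesterol to it, was bright throughout at 5428, 7963 and 9105 (log2 ratios 0.55 and 0.75, SD 0.16). Both Npc genes were lowest on day 0 and brightest on day 2, with day 1 between them. A second bright Npc2 probe set gave 0.36 and 0.52.

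Abca1, the exporter that loads cholesterol onto lipoproteins, ran the other way at 2070 on day 0, 1219 on day 1 and 1338 on day 2, 1.70-fold and 1.55-fold lower (log2 ratios -0.76 and -0.63, SD 0.25). All 3 of its probe sets lay below day 0 on both days, from -1.16 to -0.76 on day 1 and from -0.95 to -0.61 on day 2. It was the single transport gene dimmer on the later days.

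The members differed in timing about as genes in general did. Of the 12 genes at least 1.5-fold different in day 2 against day 0, 7 had their wider step between day 0 and day 1 (Hsd17b7, Ebp, Dhcr7, Stard4, Npc1, Npc2 and Abca1) and 5 between day 1 and day 2 (Pmvk, Cyp51, Sc5d, Srebf2 and Insig1). That is 58.3% and 41.7%, near the 54.9% and 45.1% of the 5834 genes that differed as much. Stard4 and Hsd17b7 had log2 ratios of -0.11 and -0.19 in day 2 against day 1. Srebf2, Insig1, Sc5d and Cyp51 had 0.86, 0.65, 0.65 and 0.61 in the same comparison and were the 4 members at least 1.5-fold higher there, a share near that of all genes, as given above.

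Probe sets of 1 gene did not always agree. Of the 14 members with several probe sets above the floor on each array, all probe sets had the same sign in 9 for day 1 against day 0, in 7 for day 2 against day 0 and in 11 for day 2 against day 1. Stard4, Srebf2, Npc2, Cyp51, Insig2, Abca1 and Fdft1 were the 7 that agreed in day 2 against day 0. The other 12 members rest on 1 such probe set, among them Npc1, Insig1, Pmvk, Ebp and Dhcr7.

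**Figure D3:**
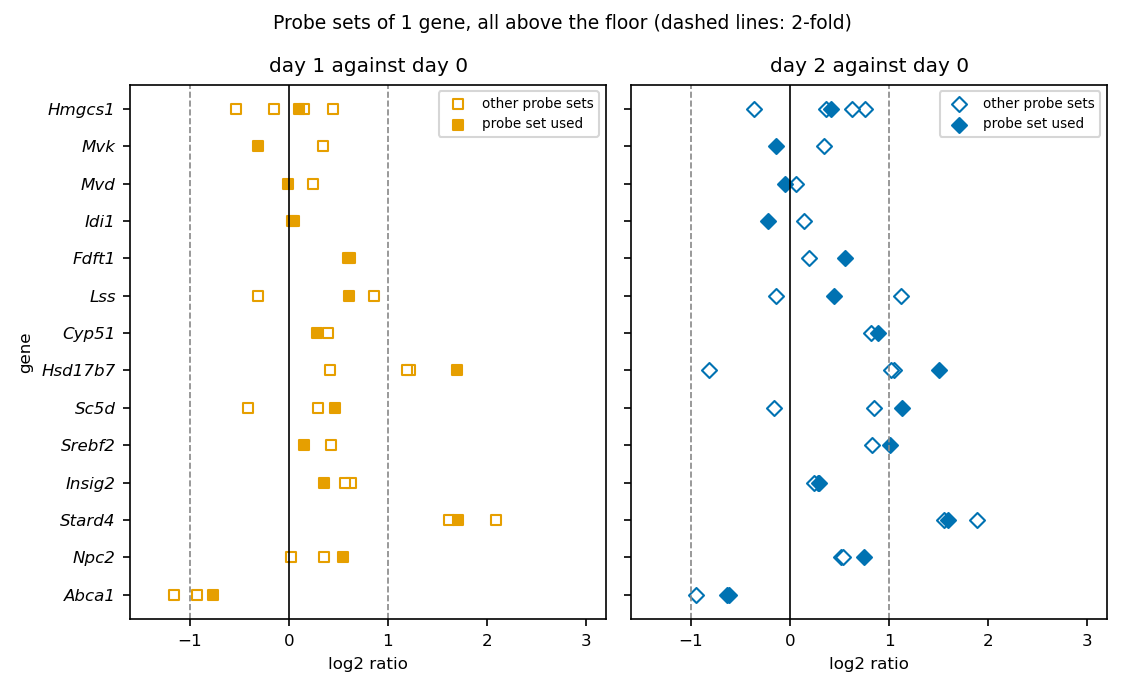
Log2 ratio of each probe set above the floor on all arrays, for the 14 cholesterol genes that have several, in day 1 against day 0 and day 2 against day 0. Filled symbols are the probe sets used; the Stard4 probe sets lie together beyond 2-fold, while those of Hsd17b7 spread from -0.82 to 1.51 on day 2.

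Neighbouring pathways were compared in day 2 against day 0. Fatty acid synthesis genes, many of them SREBP targets, went both ways: 3 of 14 were at least 2-fold higher and 3 lower. That is 21.4% each way, against 11.0% higher and 10.1% lower among all genes, and the median log2 ratio was 0.15. Me1, which supplies NADPH, read 567, 1456 and 2183 (log2 ratio 1.94, SD 0.25), the acyl-CoA synthetase Acsl3 read 734, 2269 and 1644 (1.16), and the desaturase Scd1 read 1134, 2029 and 2345 (1.05). The carboxylase Acacb read 352, 395 and 62.7 (-2.49, SD 0.50), its activator Mid1ip1 read 1684, 982.5 and 399 (-2.08), and the desaturase Fads2 read 1119, 504 and 377 (-1.57). At 2-fold the higher and lower genes of this list were equal in number, unlike the cholesterol genes. The 1.5-fold counts were 6 higher and 3 lower. That is 42.9% higher, against 38.5% of the cholesterol genes and 20.2% of all genes, and 21.4% lower, near the 21.9% of all genes. The difference between the lists was not tested.

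SREBP processing genes, with 8 of 10 measured, had 0 higher and 0 lower (against 11.0% and 10.1% of all genes) and a median log2 ratio of 0.45. The widest was Erlin1, a membrane protein that restrains SREBP, at 789, 2172 and 1538.5 (0.96, SD 0.25). Of 10 measured genes of the non-sterol isoprenoid branch, 1 was higher and 1 lower, shares near the 11.0% and 10.1% of all genes, and the median was 0.63. The higher one was Zmpste24, a protease that trims farnesylated proteins, at 1335, 1911 and 2863 (1.10), and the lower one was Fntb, a farnesyltransferase subunit, at 1551.5, 590.2 and 609 (-1.35, SD 0.39).

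Of 15 further genes of sterol transfer and storage, 1 was higher and 1 lower (6.67% each way, against 11.0% and 10.1% of all genes), and the median was -0.03. Osbp, an oxysterol-binding carrier, read 741, 1542 and 1694 (1.19, SD 0.25). Abcg1, a sterol exporter related to Abca1, read 413, 231 and 204 (-1.02, SD 0.39). Both exporters were thus dimmer on each later day than on day 0, Abca1 within 2-fold and Abcg1 2.02-fold lower on day 2. Oxysterol and LXR genes, LXR being the receptor that switches on sterol export, had 2 of 9 higher (22.2%, against 11.0% of all genes) and 1 lower (11.1%, near the 10.1%), with a median of 0.50. Lpcat3, a phospholipid-remodelling enzyme, read 1050, 1399 and 2234.5 (1.09, SD 0.25), whereas the sterol hydroxylases Cyp27a1 at 65.2, 133 and 195 (1.58, SD 0.50) and Cyp7b1 at 163, 144 and 76.3 (-1.09, SD 0.50) were dim on all arrays. Among the 9 oxysterol and LXR genes, 3 were higher at 1.5-fold (33.3%, against 20.2% of all genes) and 2 lower (22.2%, near the 21.9%).

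**Figure D4:**
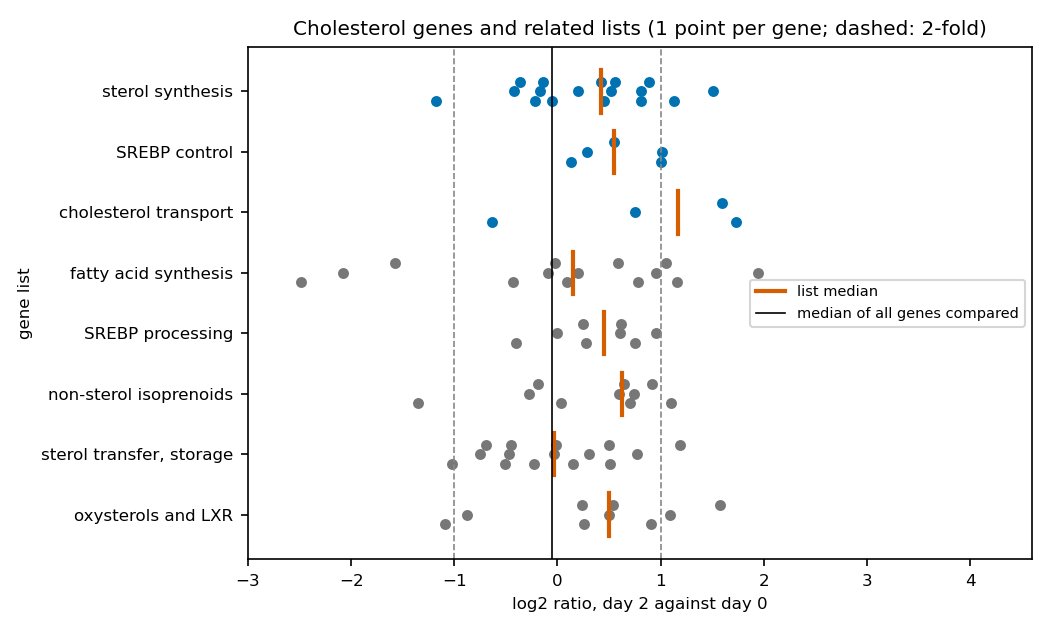
Log2 ratio in day 2 against day 0 for each gene of the cholesterol groups (blue) and of the related lists (grey), with the median of each list in orange and the median of all genes compared, -0.05, as a black line. The 5 SREBP control genes all lie above 0, Scap and Insig2 by less than their measurement SD. Fatty acid synthesis genes spread from -2.49 to 1.94.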

How the data were processed

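RNA of mouse ES cells was measured on 3 arrays, 1 for each of day 0, day 1 and day 2 (groups from the source names). The authors deposited linear MAS5 intensity values, 1 per probe set, per the submitters' processing notes, which name no version. The 2% trimmed means of the columns were 497.5 to 497.7, as after scaling to 1 target, which assumes equal total signal.

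Of 45037 probe sets that were not controls, 34945 were annotated to 1 gene, 932 to several and 9160 to none; 34741 of the 34945 matched the RefSeq table (GRCm38.p6), used for names. Arrays were scaled to 1 trimmed mean, values under 54.0 (the 40th percentile) set to that floor, and log2 taken. Where a gene had several probe sets, the one brightest on average (log2) was used. Calls needed a 2-fold difference and a signal above the floor on the brighter array. Calls were tested on simulated data with changes well beyond 2-fold in bright genes, which leaves calls near the threshold untested. The simulated noise was smaller than the measurement SD at signals of 200 to 5000, and all probe sets of a gene were changed alike.

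All members are named, and of the related lists the genes at least 2-fold different in day 2 against day 0, otherwise the widest. Members and lists were chosen with earlier results of these data known. Alternatives were the floor, a pseudocount of 50, the scaling, the probe set and the fold threshold. Python 3.11.15, numpy 2.4.6, pandas 2.3.3 and statsmodels 0.14.6 were used. The number of arrays limits the precision.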

Additional observations from a re-analysis of the deposited data

How the results depend on the processing

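No paired analysis was possible because each day has 1 array. Of 66 recomputed counts of cholesterol genes, 55 stayed within 1.5 times the reported 2-fold count and 11 did not. Counts at 1.5-fold and 3-fold were also set against the 2-fold count, and most of the 11 were of this kind. With the mean over all probe sets, 2 members (Stard4 and Npc1) rather than 5 were at least 2-fold higher in day 2 against day 0, as given in the results. With probe sets ending in _x_at, _s_at or _a_at left out, Pmvk and Srebf1 had no probe set, Hsd17b7 stayed above 2-fold on both later days, the lower counts in day 2 against day 0 and day 2 against day 1 were 0, and Lss was also higher (log2 ratio 1.12). At 1.5-fold the counts were 8 higher and 1 lower in day 1 against day 0, 10 and 2 in day 2 against day 0, and 4 higher in day 2 against day 1. At 3-fold they were 2 higher and 0 lower in day 2 against day 0, and 0 lower in day 2 against day 1. Srebf2 was under 2-fold with quantile normalization and with the pseudocount. All 108 recomputed group medians stayed within the overall measurement SD of 0.37 of the reported ones. That margin is wider than several of the medians, such as 0.23 for all members in day 1 against day 0. No called gene changed sign, and 680 of 696 recomputed ratios of single genes moved by less than their SD. The floor settings left the ratios of members unchanged. All 16 larger moves came from averaging probe sets or leaving out unspecific ones, so the choice of probe set mattered most. Signals near the floor limit the related lists more than the members.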
